A study of Saccharomyces cerevisiae with 18 samples.

Results

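The difference in the ethanol response between the ethanol-tolerant mutant CM1 and its parent W303-1A was examined in budding yeast, Saccharomyces cerevisiae. It was computed for each gene as the change of CM1 between 0 and 6.5 % (v/v) ethanol minus the change of W303-1A between the same concentrations. Of the 18 arrays of the study, 12 carry this difference. They are 3 arrays each of W303-1A without ethanol, W303-1A with 6.5 % ethanol, CM1 without ethanol and CM1 with 6.5 % ethanol. The other 6 arrays, of a second mutant, SM1, helped to estimate the spread. Each array was a 2-colour hybridisation of RNA from 1 culture against a common pool of RNA from W303-1A grown without ethanol, and the 3 replicates of a group were different cultures. Cultures with and without ethanol were all started from unstressed cells in late exponential growth. W303-1A is a haploid laboratory strain of mating type a. CM1 is 1 mutant line, and its mutations and the sampling time were not given in the sources used here.

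Ethanol inserts into membranes, unfolds proteins and lets protons leak into the cell. Yeast commonly answers such stress with a rise of heat shock and Msn2/Msn4-dependent genes, and with a fall of the genes for ribosomes and their assembly. Ergosterol, the sterol of fungal membranes, the composition of membrane lipids and the mannoprotein cell wall are known to bear on ethanol tolerance, and acetaldehyde dehydrogenases carry ethanol-derived carbon towards acetate and acetyl-CoA.

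All values are log2 ratios of a culture to the pool, or differences of such ratios, so 1 unit is a 2-fold change. They are relative to the average transcript of each array, since the array medians lay within 0.0305 of 0, and a change of all RNA in a cell would not be seen. In all, 5650 annotated genes were tested. The residual spread was 0.241 to 0.613 (SD across genes) per array and was highest on replicate 2 of CM1 with ethanol. Replicate 1 of each group had its dyes swapped, and the deposited values do not state the direction of the ratio. Red over green is the likely reading, since the heat shock gene HSP12 stood in W303-1A with ethanol at -7.01 on the swapped array and at 8.12 and 7.92 on the others, and in CM1 at -4.83, 2.14 and 4.25. Swapped arrays were therefore turned, and values by array are given below with the fitted dye effect removed. The response difference is called higher or lower in CM1 where its adjusted p was under 0.05 in limma over all genes. Errors after ± are standard errors of that fit, with n = 3 arrays per group. Families of near-identical genes (PHO5, TDH, HXT, AAD, histones, ribosomal protein pairs and Ty elements) are uncertain as to the copy.

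The response differed between the strains for 263 of 5650 genes (4.65 %). It was higher in CM1 for 195 (3.45 %) and lower for 68 (1.20 %). These 2 shares are to be set beside every list count below, and a list with 1 call may lie near them. Most of the 263 genes passed in W303-1A with ethanol and did not pass in CM1. Among the 195 higher genes, 158 fell in W303-1A, 3 rose and 34 did not pass there. In CM1 itself 41 of the 195 rose, 1 fell and 153 did not pass. Their median response was -1.49 in W303-1A and 0.34 in CM1. Among the 68 lower genes 59 rose in W303-1A and 0 fell, while 8 rose and 7 fell in CM1, with medians of 1.67 and -0.11. Over all genes the shares in W303-1A were 10.2 % rising and 13.6 % falling, and in CM1 3.88 % and 1.73 %. The p-values were adjusted in each strain separately, so a gene needed a smaller unadjusted p to pass in CM1. Counts that rose or fell are thus not at the same cutoff in the 2 strains, here and below. The median response difference of all genes was -0.0031.

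Most of the genes called differed between the 2 strains in the cultures with ethanol, but part of the difference lay without it. For the 195 higher genes the median of CM1 minus W303-1A was 1.18 with ethanol and -0.58 without. For the 68 lower genes it was -1.34 and 0.37. Single genes, such as CWP1 below, differed mainly without ethanol. With ethanol, 147 of the 195 higher genes were higher in CM1 than in W303-1A, where 6.96 % of all genes were, and 63 of the 68 lower genes were lower, against 5.29 % of all. Without ethanol 22 of the 195 and 2 of the 68 were lower in CM1 than in the parent, where 1.12 % of all genes were. Since the response difference is built from these same arrays, those counts describe where it arises and do not test it. In 13 genes both strains passed with opposite signs, and in all 13 the gene rose in CM1 and fell in W303-1A. The number called depended on single arrays. It fell to 98 without replicate 3 of CM1 without ethanol, to 130 without replicate 2 of W303-1A without ethanol and to 156 without replicate 2 of CM1 without ethanol. It rose to 577 without replicate 1 of CM1 with ethanol, and lay between 178 and 290 without any other array. The 263 genes were picked from these same arrays, so a kept sign does not test a call. All their signs were kept in each of these fits. Of 110 genes named by rule that passed, 55 passed in all 12 of them, and a gene named below as passing did so unless the text says otherwise.

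**Figure D1:**
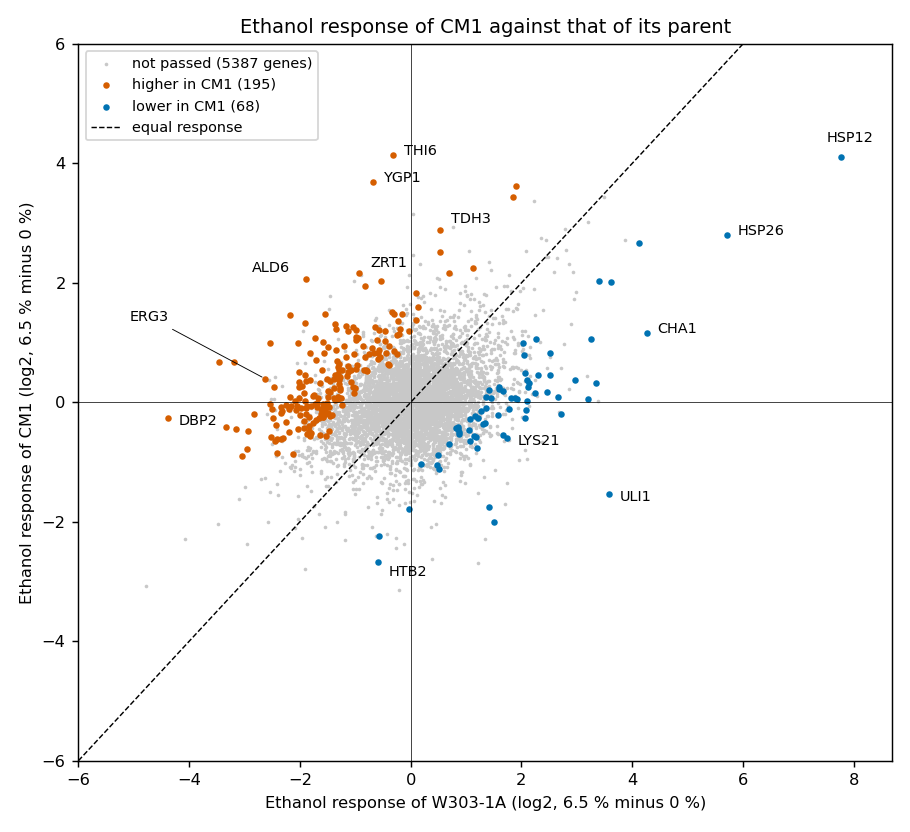
Ethanol response of each of 5650 genes in W303-1A (horizontal axis) and CM1 (vertical axis), as log2 differences between 6.5 and 0 % ethanol. Orange points are the 195 genes with a higher response in CM1, blue points the 68 with a lower one, grey points those that did not pass. The orange points lie mostly left of 0, where W303-1A fell, and the blue points mostly right of 0, where W303-1A rose.

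A further reading of the dye orientation came from the arrays alone. A fit to the 12 arrays of normal dye direction, 8 of the 2 strains and 4 of SM1, called 445 genes. Of these 348 (78.2 %) had the same sign on the 4 swapped arrays of the 2 strains, against 62.9 % of all genes. With the swapped arrays taken as deposited, 1 gene was called. The correlation of the ethanol response between swapped and normal arrays as deposited was -0.42 across probes in W303-1A and -0.089 in CM1. Between the ethanol arrays themselves, without subtracting those without ethanol, it was 0.018 in W303-1A and 0.25 in CM1, which does not point to turning the arrays. The reading is thus likely rather than certain, and less certain in CM1.

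Sterol synthesis genes fell in the parent. Of 25 ergosterol genes 19 fell in W303-1A and 0 rose, while 0 passed in either direction in CM1. The response difference was higher in CM1 for 11 and lower for 0. The list's median difference was 1.21, from a median response of -1.42 in W303-1A and -0.22 in CM1. ERG3, the C-5 sterol desaturase, was measured at 0.24, 0.95 and 0.27 in W303-1A without ethanol and at -1.72, -2.33 and -2.37 with it. In CM1 it stood at -0.66, -0.46 and -0.55 without ethanol and at -0.40, 0.04 and -0.14 with it. All 3 ethanol cultures of the parent lay below every other culture, and the 2 CM1 groups did not overlap but lay close together. The response difference of ERG3 was 3.02 ± 0.38 (limma, adjusted p = 0.000533). ERG11, the lanosterol demethylase and target of azole drugs, had a difference of 2.20 ± 0.35 (adjusted p = 0.00364). HMG1, a HMG-CoA reductase at the controlled step of the pathway, had one of 2.18 ± 0.44 (adjusted p = 0.012), and MVD1, of the mevalonate part, and ERG5, of the late part, had 1.74 and 1.60. The count of 11 was 6 without replicate 2 of W303-1A without ethanol, 7 without replicate 3 of W303-1A with ethanol and 6 without replicate 3 of CM1 without ethanol. It was 6 with quantile normalization and 5 in the fit to the 12 arrays of the 2 strains alone. MVD1 lost its call in both (adjusted p = 0.0861 and 0.0542) and without the dye term (0.241), where HMG1 lost it too (0.0965).

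ACC1, the acetyl-CoA carboxylase that makes malonyl-CoA for fatty acid synthesis, stood at -0.08, 0.14 and 0.16 in W303-1A without ethanol and at -1.52, -1.15 and -1.23 with it, and at -0.40, -0.44 and -0.33 in CM1 without ethanol and 0.96, 1.11 and 0.69 with it. No groups overlapped, and CM1 with ethanol was the highest of the 4. ACC1 fell by 1.37 in W303-1A and rose by 1.31 in CM1, a difference of 2.68 ± 0.28 (adjusted p = 0.000131). Of 14 fatty acid genes 2 were higher and 1 lower in CM1, with a median difference of 1.17 that was 1.68 on the normal arrays and 0.06 on the swapped ones. The higher count ran from 1 without replicate 2 of W303-1A without ethanol to 5 without replicate 1 of CM1 with ethanol. It also changed without replicate 3 of W303-1A at either ethanol level, replicate 2 or 3 of CM1 without ethanol or replicate 2 of CM1 with ethanol. The lower call was kept without replicate 2 of CM1 with ethanol and lost without any other array. In the fit to the 12 arrays the higher count was 1, on the normal arrays it was 6, and in both, with quantile normalization and after removing a smooth trend over probe order (the trend removed, below), the lower count was 0. The desaturase gene OLE1 did not pass, at 1.44 with a 95 % interval of -0.0017 to 2.88 (adjusted p = 0.221).

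Ribosomal protein genes fell with ethanol in more cases in the parent than in CM1. Of 80 large-subunit ribosomal protein genes 53 fell in W303-1A and 7 in CM1, and of 56 small-subunit genes 43 fell in W303-1A and 5 in CM1. Their median responses were below 0 in both strains. They were -0.89 in W303-1A and -0.38 in CM1 for the large subunit, and -1.16 and -0.44 for the small one. The response difference was higher in CM1 for 7 and lower for 1 of the large-subunit genes, and higher for 6 and lower for 0 of the small-subunit genes. Their median differences were 0.53 and 0.70, with 66 of 80 and 51 of 56 members above 0. The medians were 0.70 and 0.90 on the normal arrays and 0.34 and 0.29 on the swapped ones. RPL6B had a difference of 1.81 ± 0.34 (adjusted p = 0.00856), RPS11A one of 1.44 ± 0.28 (adjusted p = 0.00985) and RPS17A one of 1.43. Most members did not pass. RPL22B, the minor copy of a large-subunit protein, went the other way. It was at -0.29, 0.07 and -0.16 in W303-1A without ethanol, -0.18, -0.15 and -0.15 with it, 0.52, 0.88 and 0.40 in CM1 without ethanol and -1.13, -1.21 and -1.23 with it. The parent's groups overlapped, whereas the CM1 groups lay on either side of them. RPL22B fell in CM1, with a difference of -1.76 ± 0.28 (adjusted p = 0.0038).

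Of 74 genes of ribosome assembly 40 fell in W303-1A and 6 in CM1, with median responses of -1.02 and -0.45. The response difference was higher in CM1 for 5 and lower for 0. The list's median difference was 0.58, with 0.73 on the normal arrays and 0.10 on the swapped ones. HAS1, a helicase of both subunits' assembly, was at 0.38, 1.27 and 0.47 in W303-1A without ethanol, -2.01, -2.46 and -1.87 with it, 0.44, 0.13 and 0.49 in CM1 without ethanol and 0.00, 0.78 and -0.33 with it. The parent with ethanol stood alone and the 2 CM1 groups overlapped. Its difference was 2.62 ± 0.43 (adjusted p = 0.00409), and that of RRP5, which acts in early processing of both subunits' RNA, was 2.17 ± 0.41 (adjusted p = 0.00926). Of 10 RNA polymerase I genes 6 fell in W303-1A and 0 in CM1, with median responses of -1.63 and -0.41. The list's median difference was 1.25 (1.78 on the normal arrays and 0.42 on the swapped ones), and 3 genes were higher in CM1. Among them was RPA190, the largest subunit, at 1.80 ± 0.41 (adjusted p = 0.021). RPA190 did not pass without replicate 2 of W303-1A with ethanol, replicate 2 of CM1 without ethanol or replicate 3 of CM1 without ethanol, with adjusted p up to 0.058. It also lost its call with quantile normalization (adjusted p = 0.079), with the trend removed (0.0849) and in the fit to the 12 arrays (0.0675). DBP2, an RNA helicase that also works in mRNA export, gave the largest difference of the helicases named. It was at 0.25, 0.82 and 1.05 in W303-1A without ethanol, -3.38, -3.96 and -3.70 with it, 0.91, 0.36 and 0.28 in CM1 without ethanol and -0.53, 0.91 and 0.38 with it. It fell by 4.39 in the parent, and the CM1 groups overlapped, a difference of 4.13 ± 0.48 (adjusted p = 0.000294). The translation initiation factor gene PRT1 had one of 1.93 ± 0.39 (adjusted p = 0.0128, or 0.0934 with quantile normalization, where it was 1.25, and 0.0884 without the dye term).

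The counts of these lists moved with single arrays. Without replicate 3 of CM1 without ethanol, 2 large-subunit, 2 small-subunit, 2 assembly and 0 polymerase genes were higher. Without replicate 1 of CM1 with ethanol, 12 small-subunit, 15 assembly and 5 polymerase genes were. The large-subunit count was 3 or 4 without 6 other arrays, namely replicates 2 and 3 of W303-1A without ethanol, replicate 2 of W303-1A with ethanol, replicates 1 and 2 of CM1 without ethanol and replicate 3 of CM1 with ethanol. The small-subunit count was 3 without replicate 1 of CM1 without ethanol. The assembly count was 3 without replicate 2 or 3 of W303-1A without ethanol. The polymerase count was 1 without replicate 2 of W303-1A without ethanol or replicate 2 or 3 of W303-1A with ethanol, and 0 without replicate 2 of CM1 without ethanol. With quantile normalization 2 large-subunit, 4 small-subunit, 3 assembly and 1 polymerase genes were higher. In the fit to the 12 arrays these were 2, 2, 2 and 0, and with the trend removed 4, 4, 3 and 0. On the normal arrays 12 assembly genes were.

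**Figure D2:**
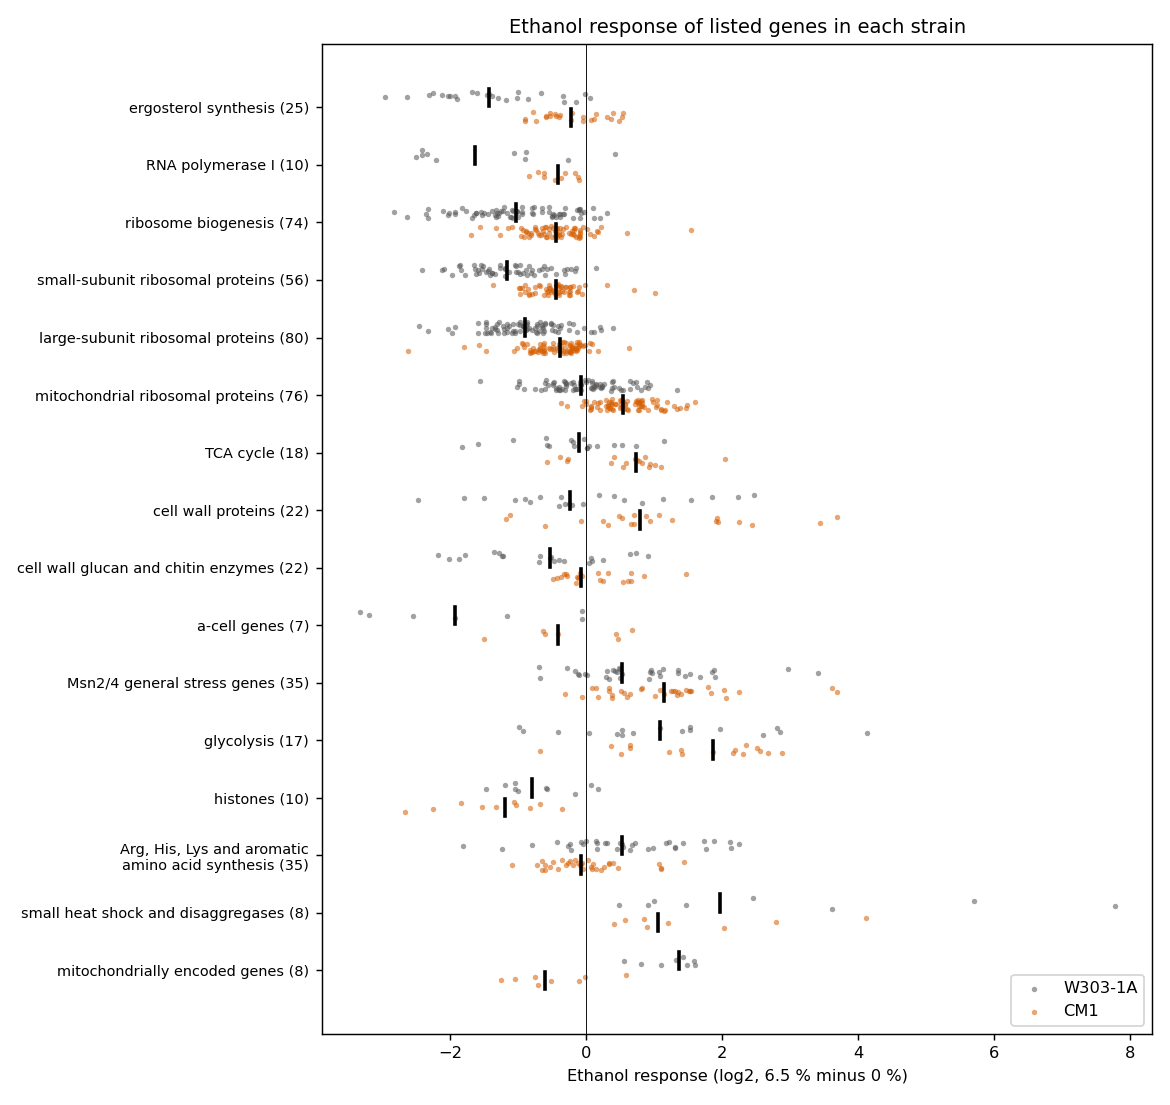
Ethanol response of the members of 16 gene lists, as log2 differences between 6.5 and 0 % ethanol, in W303-1A (grey) and CM1 (orange). Each point is a gene, black bars are list medians, and the number of genes measured follows each name. The sterol, polymerase, assembly and large- and small-subunit ribosomal protein medians lie below 0 in both strains and further below in W303-1A. The median of the mitochondrial ribosomal proteins lies above 0 in CM1.

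Of 18 genes of the TCA cycle, which oxidises acetyl-CoA, 6 had a higher response in CM1 and 0 a lower one. The list's median response was 0.73 in CM1 and -0.10 in W303-1A. ACO1, the aconitase, was at 0.28, -0.00 and 0.59 in W303-1A without ethanol, -1.53, -1.04 and -1.30 with it, -0.67, -0.74 and -0.49 in CM1 without ethanol and 0.45, 0.45 and 0.23 with it. It fell in the parent and rose in CM1, whose level with ethanol overlapped that of the unstressed parent. The difference was 2.59 ± 0.29 (adjusted p = 0.000291). IDH2, a subunit of the NAD-dependent isocitrate dehydrogenase, was at 0.37, 0.91 and 0.45 in W303-1A without ethanol, -0.01, 0.21 and -0.09 with it, -0.76, -0.92 and -1.13 in CM1 without ethanol and 0.98, 1.23 and 1.10 with it. CM1 with ethanol held the highest 3 values and CM1 without it the lowest 3. IDH2 rose by 2.04 in CM1, and its difference was 2.58 ± 0.30 (adjusted p = 0.000291). The fumarase gene FUM1 had a difference of 2.65 ± 0.55 (adjusted p = 0.0149, or 0.0521 without replicate 3 of CM1 without ethanol). Without that array 2 TCA genes were higher in place of 6. With quantile normalization or in the fit to the 12 arrays 3 were, and FUM1 had an adjusted p of 0.151 without the dye term.

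Mitochondrial ribosomal proteins translate the mitochondrial genome. Their list of 76 genes also holds YMR1, a phosphoinositide phosphatase gene. The list's median difference was 0.59, with 60 of 76 above 0, and 12 genes were higher in CM1 and 0 lower. MRPS8 stood among them at 1.53 ± 0.29 (adjusted p = 0.00926) and RSM26 at 3.02 ± 0.64 (adjusted p = 0.0162, or 0.0529 without replicate 3 of CM1 without ethanol). Without that array the count was 1. It was 5 without replicate 2 and 7 without replicate 1 of the same group, and 6 without replicate 2 or 3 of W303-1A without ethanol or replicate 1 or 2 of W303-1A with ethanol. With quantile normalization it was 1, with the trend removed 5, in the fit to the 12 arrays 4 and without the dye term 0. MRPS8 lost its call without the dye term (adjusted p = 0.145), as did RSM26 (0.0861), which also lost it with quantile normalization (0.0533). Of 37 nuclear genes of the respiratory chain and ATP synthase, 1 was higher, near the 3.45 % of all genes. This gene was NDE1, the external NADH dehydrogenase, at 2.47 ± 0.36 (adjusted p = 0.00195). Up to 3 were higher without replicate 3 of W303-1A with ethanol or replicate 1 or 2 of CM1 with ethanol. The 8 genes encoded in the mitochondrial genome itself pointed the other way without passing. Their differences ran from -2.57 for COX3 (adjusted p = 0.12) to -1.01 for VAR1, with a median of -1.60 and 0 of 8 above 0. Their median level was -0.64, -1.42 and -0.06 in W303-1A without ethanol, 0.85, -0.20 and 0.63 with it, 0.08, -1.04 and 0.75 in CM1 without ethanol and 0.01, -0.55 and -1.33 with it. These values overlapped between groups and spread by more than 1 unit within all 4.

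Cell wall genes gave the gene with the smallest adjusted p of the comparison. YGP1, a secreted glycoprotein gene induced by nutrient limitation, was at 0.32, 0.52 and 0.72 in W303-1A without ethanol, 0.01, -0.57 and 0.09 with it, -2.25, -2.21 and -2.32 in CM1 without ethanol and 1.31, 1.73 and 1.27 with it. The 4 groups did not overlap, and CM1 held both the lowest and the highest. YGP1 rose by 3.69 in CM1 and fell by 0.68 in the parent, a difference of 4.37 ± 0.31 (adjusted p = 2.87e-06). Of 22 cell wall protein genes 7 were higher in CM1 and 0 lower, with a median difference of 0.81 from responses of 0.80 in CM1 and -0.23 in W303-1A. CIS3, a covalently bound mannoprotein of the PIR family, had a difference of 2.73 ± 0.32 (adjusted p = 0.000291). CIS3 fell in the parent and did not pass in CM1, where its 6 values lay between -0.40 and 0.15. CWP1 and CWP2, mannoproteins attached through a GPI remnant, rose in CM1 and fell in W303-1A. CWP1 was at 0.31, 0.05 and 0.01 in W303-1A without ethanol, -0.49, -0.68 and -0.93 with it, -2.58, -2.54 and -3.08 in CM1 without ethanol and -1.26, -0.48 and -0.63 with it. The 2 ethanol groups overlapped, so the difference of 2.77 ± 0.35 (adjusted p = 0.000533) came with a level in CM1 that was lower by 2.86 without ethanol. CWP2 had a difference of 2.31 ± 0.30 (adjusted p = 0.000765). The list of 22 glucan and chitin enzymes also holds the MAP kinase gene SLT2 and the mannosyltransferase gene MNN1. Of the 22, 4 were higher, CTS1, the chitinase of cell separation, at 2.27 ± 0.49 (adjusted p = 0.0173) and FKS1, a glucan synthase, at 1.49 ± 0.31 (adjusted p = 0.0152) among them. Without replicate 3 of CM1 without ethanol 0 of these enzymes and 4 cell wall proteins passed, with adjusted p of 0.057 for CTS1 and 0.0521 for FKS1. Without replicate 2 of W303-1A without ethanol 4 cell wall proteins passed too. In the fit to the 12 arrays 4 cell wall proteins and 1 enzyme passed, with adjusted p of 0.0666 for CTS1 and 0.065 for FKS1, and on the normal arrays 4 cell wall proteins. FKS1 also missed the threshold with the trend removed (0.0537).

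Acetaldehyde metabolism also held a gene with opposite changes in the 2 strains. ALD6, the cytosolic acetaldehyde dehydrogenase that supplies acetate, was at 0.53, 0.33 and 0.28 in W303-1A without ethanol, -1.56, -1.42 and -1.56 with it, -1.0, -0.87 and -1.50 in CM1 without ethanol and 0.84, 1.53 and 0.46 with it. Unstressed CM1 overlapped the stressed parent, and stressed CM1 overlapped the unstressed parent. ALD6 rose by 2.07 in CM1 and fell by 1.89 in W303-1A, a difference of 3.96 ± 0.36 (adjusted p = 3.88e-05). Of 18 genes of ethanol and acetaldehyde metabolism 3 were higher and 1 was lower. The others higher were ADH3, the mitochondrial alcohol dehydrogenase, at 2.16 ± 0.39 (adjusted p = 0.00658) and ACS2, the acetyl-CoA synthetase, at 1.82 ± 0.40 (adjusted p = 0.0191). ACS2 missed the threshold without replicate 3 of CM1 without ethanol (adjusted p = 0.057), and without replicate 1 of CM1 with ethanol 5 genes of the list were higher. The lower call, ALD5, was lost without replicate 2 of W303-1A without ethanol or replicate 1 or 3 of CM1 without ethanol, and 2 were lower without replicate 3 of CM1 with ethanol. It was lost too with quantile normalization, the trend removed, no dye term, the 12 arrays alone or the normal arrays alone. The fermentative ADH1 did not differ detectably, at -0.29 with a 95 % interval of -1.25 to 0.68 (adjusted p = 0.743), nor did ADH2, which oxidises ethanol, at 0.27 with one of -0.68 to 1.23 (adjusted p = 0.75).

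Of 17 glycolysis genes 9 rose and 2 fell in W303-1A, and 12 rose and 0 fell in CM1. Without ethanol 11 of them were lower in CM1 than in the parent, with a list median of -2.20. The response difference was higher for 3 and lower for 1. TDH3, the main glyceraldehyde-3-phosphate dehydrogenase, was at 0.21, 0.40 and 0.47 in W303-1A without ethanol, 0.99, 1.17 and 0.53 with it, -2.91, -2.39 and -3.03 in CM1 without ethanol and 0.54, -0.45 and 0.24 with it. Unstressed CM1 stood far below the other groups, and with ethanol CM1 overlapped the parent's groups. The difference of TDH3 was 2.35 ± 0.38 (adjusted p = 0.00409). The higher count was 1 without replicate 1 or replicate 3 of CM1 without ethanol, 1 in the fit to the 12 arrays or on the normal arrays, and 7 with quantile normalization. The lower count was 0 in these 3 fits. It was also 0 without replicate 1 or 3 of W303-1A without ethanol, or replicate 1 or 2 of W303-1A with ethanol. The same held without replicate 1 or 2 of CM1 without ethanol, or replicate 1 or 3 of CM1 with ethanol. Among 17 genes of hexose transport, glucose sensing and its regulation 2 were higher in CM1. The count was 1 without replicate 2 of W303-1A without ethanol or replicate 2 or 3 of W303-1A with ethanol. It was also 1 without replicate 2 of CM1 without ethanol or replicate 3 of CM1 with ethanol. HXT4, a high-affinity glucose transporter, had a difference of 3.53 ± 0.71 (adjusted p = 0.0118). With quantile normalization 0 of these 17 genes were higher, and the difference of HXT4 was 2.22 (adjusted p = 0.109). It was at -0.05, 0.67 and 0.10 in W303-1A without ethanol, -1.90, -3.76 and -1.21 with it, 1.85, 1.15 and 1.63 in CM1 without ethanol and 2.87, 2.43 and 2.32 with it, so that all 6 CM1 values exceeded all 6 of the parent.

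**Figure D3:**
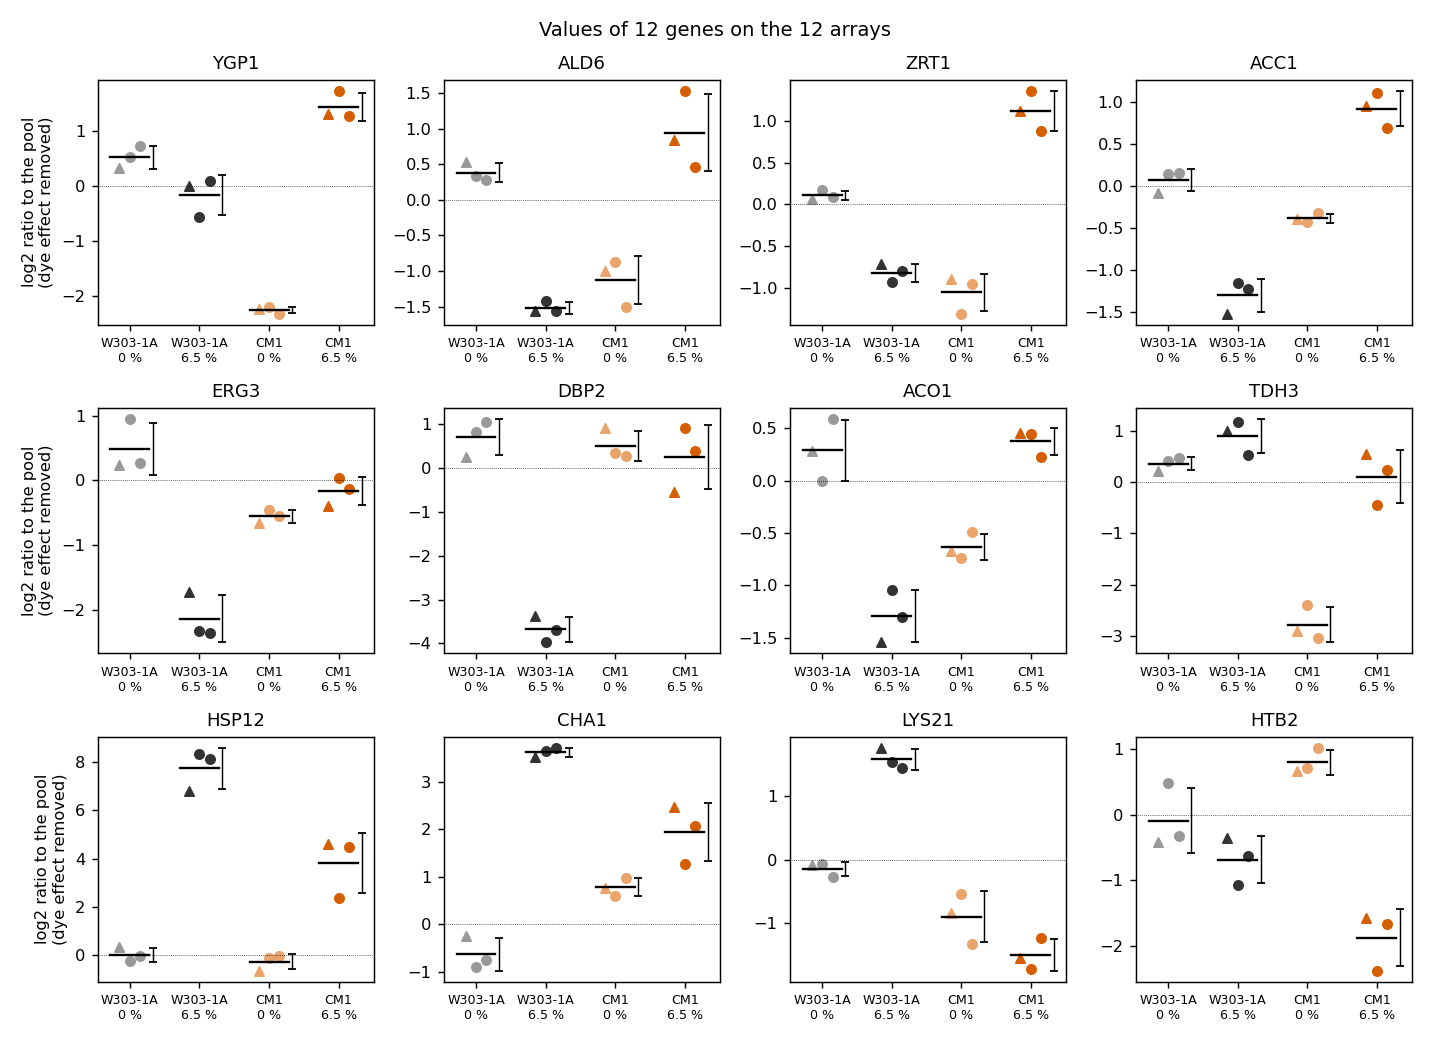
Values of 12 genes on the 12 arrays, as log2 ratios to the pool with the fitted dye effect removed. Triangles are the dye-swapped replicate 1, circles replicates 2 and 3, horizontal bars the mean of 3 arrays and vertical bars ± 1 SD, and each panel has its own axis. YGP1, ALD6, ZRT1, ACC1 and ACO1 fall in W303-1A and rise in CM1, DBP2 falls in W303-1A, and HSP12 rises in both strains to a higher level in W303-1A.

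Among heat shock genes, HSP12, HSP26 and HSP31 rose less in CM1 than in the parent. A large rise in the parent enters the difference with a minus sign. Of 15 cytosolic Hsp70, Hsp110 and J-protein genes 1 was higher and 1 lower, with a median difference of 0.03 and 8 above 0. Each of these 2 counts ran from 0 to 2 without 1 array. The median difference was -0.37 for Hsp90 and co-chaperone genes and 0.38 for mitochondrial chaperones. HSP12, a small membrane-associated stress protein gene, was at 0.32, -0.28 and -0.08 in W303-1A without ethanol, 6.79, 8.35 and 8.15 with it, -0.66, -0.14 and -0.08 in CM1 without ethanol and 4.61, 2.37 and 4.48 with it. The unstressed groups overlapped and the ethanol groups did not. HSP12 rose by 7.77 in W303-1A and by 4.11 in CM1, a difference of -3.66 ± 0.76 (adjusted p = 0.0152), or -1.52 (adjusted p = 0.462) with quantile normalization. The difference was -4.89 on the normal arrays and -1.20 on the swapped ones. HSP26, a chaperone that binds unfolded proteins, rose by 5.71 and 2.80, a difference of -2.91 ± 0.65 (adjusted p = 0.021). It missed the threshold without replicate 2 of W303-1A without ethanol (adjusted p = 0.0578), replicate 2 of W303-1A with ethanol (0.0505) or replicate 3 of CM1 without ethanol (0.057). The same held with quantile normalization (0.0597), the trend removed (0.0663), no dye term (0.0502) or the 12 arrays alone (0.069). HSP31, a methylglyoxalase of the DJ-1 family, rose by 3.61 and 2.02, a difference of -1.59 ± 0.33 (adjusted p = 0.0151). Its adjusted p was 0.208 with quantile normalization, where the difference was -0.93, 0.0616 with the trend removed, 0.0683 without the dye term and 0.0596 for the 12 arrays. These 3 made up the lower calls in the list labelled small heat shock and disaggregases, with 0 higher and a list median of -1.08. Its 8 genes are HSP12, HSP26, HSP42, HSP104, HSP31 and the HSP31 relatives HSP32, HSP33 and SNO4. Probes of HSP31 and its relatives may read one another, which was not tested. With quantile normalization 0 of the 8 were lower, and 1 was with the trend removed or for the 12 arrays. The disaggregase gene HSP104 stood at -0.06 with a 95 % interval of -0.94 to 0.82 (adjusted p = 0.944).

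The general stress list had calls in both directions. Of 35 genes listed under Msn2/Msn4, the activators of the general stress response, 15 rose and 1 fell in W303-1A and 18 rose in CM1. The response difference was higher in CM1 for 4 and lower for 2, with a median of 0.17. The stress genes HSP12, HSP26, HSP104 and TPS1 were counted in other lists, and HSP12 and HSP26 had a lower response in CM1. The counts and the median here leave these genes out. The higher count was 2 without replicate 3 of W303-1A without ethanol, replicate 1 of W303-1A with ethanol or replicate 3 of CM1 without ethanol. The lower count was 1 without replicate 2 of W303-1A at either ethanol level or without replicate 2 or 3 of CM1 without ethanol. With quantile normalization or for the 12 arrays 2 were higher and 1 lower. YGP1 was among the higher genes. DDR2, a small stress protein gene, rose in both strains, with a difference of 1.72 ± 0.32 (adjusted p = 0.00846, or 0.092 with quantile normalization and 0.0631 with the trend removed). CYC7, the cytochrome c isoform of low oxygen and stress, was at 0.21, -0.25 and -0.19 in W303-1A without ethanol, 2.14, 2.90 and 3.63 with it, 0.86, 0.54 and 0.74 in CM1 without ethanol and 1.25, 0.97 and 1.05 with it. It rose by 2.97 in the parent, and CM1's 2 groups were separated by little, a difference of -2.59 ± 0.41 (adjusted p = 0.0038). The catalase gene CTT1 (1.02, adjusted p = 0.286) and the trehalose synthase gene TPS1 (-1.30, adjusted p = 0.101) did not pass. Their 95 % intervals were -0.16 to 2.21 and -2.23 to -0.37, the latter not adjusted for the number of genes. GPD1, of glycerol synthesis, stood at -0.34 (-1.10 to 0.42, adjusted p = 0.591) and PMA1, the plasma membrane proton pump, at 1.38 (0.0017 to 2.77, adjusted p = 0.221).

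Genes of amino acid metabolism were among those with a lower response in CM1. Of 35 genes of arginine, histidine, lysine and aromatic synthesis 12 rose in W303-1A and 1 in CM1, and 5 were lower and 1 higher in CM1, with a median difference of -0.71. LYS21, a homocitrate synthase that commits carbon to lysine, was at -0.09, -0.08 and -0.27 in W303-1A without ethanol, 1.77, 1.54 and 1.45 with it, -0.84, -0.54 and -1.34 in CM1 without ethanol and -1.56, -1.73 and -1.24 with it. The parent with ethanol was the highest group, and the CM1 groups overlapped below the unstressed parent. Its difference was -2.33 ± 0.33 (adjusted p = 0.00168), and that of its isozyme gene LYS20 was -1.80 ± 0.35 (adjusted p = 0.0102). With quantile normalization both stood at -1.22 and lost their calls, with adjusted p of 0.0649 for LYS21 and 0.0861 for LYS20, and LYS20 lost it with the trend removed too (0.132). The lower count of this list was 2 or 3 without 7 of the arrays, namely replicates 2 and 3 of W303-1A at either ethanol level and each replicate of CM1 without ethanol. It was 8 without replicate 1 or 2 of CM1 with ethanol. It was 1 with quantile normalization, 2 for the 12 arrays and 3 on the normal arrays. CHA1, the serine and threonine deaminase of the catabolic list, was at -0.25, -0.90 and -0.76 in W303-1A without ethanol, 3.53, 3.65 and 3.71 with it, 0.77, 0.60 and 0.97 in CM1 without ethanol and 2.48, 1.28 and 2.07 with it. The 4 groups did not overlap, with CM1 starting higher and ending lower than the parent. CHA1 had a difference of -3.10 ± 0.49 (adjusted p = 0.00364). YAT2, a carnitine acetyltransferase, rose in W303-1A and did not pass in CM1, at -2.91 ± 0.43 (adjusted p = 0.00221). FRM2, a nitroreductase-like gene (-3.14 ± 0.62, adjusted p = 0.011), and the aryl-alcohol dehydrogenase-like genes AAD6 (-2.29 ± 0.38, adjusted p = 0.00437) and AAD4 (-2.22 ± 0.42, adjusted p = 0.00861) did likewise. With quantile normalization AAD4 was at -1.27 (adjusted p = 0.121). Without the dye term CHA1 (0.204), YAT2 (0.0661), FRM2 (0.353) and AAD4 (0.145) had adjusted p above the threshold. The largest negative difference, -5.11 ± 0.90 (adjusted p = 0.00614), was that of ULI1.

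Single genes of vitamin, metal and phosphate supply also differed. THI6, a bifunctional enzyme of thiamine phosphate synthesis, was at -0.05, 0.31 and 2.28 in W303-1A without ethanol, 0.45, 0.30 and 0.84 with it, -0.31, 0.65 and 0.27 in CM1 without ethanol and 5.64, 3.83 and 3.55 with it. Stressed CM1 stood above all other cultures, and the other 3 groups overlapped. The difference of THI6 was 4.45 ± 0.81 (adjusted p = 0.00744). Of 18 thiamine genes, THI6 was the 1 higher and THI4 the 1 lower, with a list median of -0.54. Of all genes 3.45 % were higher and 1.20 % lower. THI4, which makes the thiazole part, stood at -2.22 ± 0.52 (adjusted p = 0.0248) and kept its call in 4 of the 12 fits without 1 array, namely those without replicate 1 of any group. Its adjusted p was 0.113 with quantile normalization, 0.0984 without the dye term and 0.0679 for the 12 arrays. On the normal arrays 2 thiamine genes were higher and 4 lower. ZRT1, the high-affinity zinc transporter, was at 0.07, 0.17 and 0.09 in W303-1A without ethanol, -0.72, -0.93 and -0.80 with it, -0.89, -1.31 and -0.96 in CM1 without ethanol and 1.12, 1.36 and 0.88 with it. It fell in the parent and rose above it in CM1, a difference of 3.10 ± 0.29 (adjusted p = 5.08e-05), the 1 call among 9 zinc genes. The copper transporter gene CTR1 had a difference of 2.41 ± 0.37 (adjusted p = 0.00261). It was the 1 call among 27 iron and copper genes, near the 3.45 % of all genes called higher. Up to 3 iron and copper genes were higher without replicate 1 or 3 of CM1 with ethanol, and 2 with quantile normalization or on the normal arrays. Of 16 phosphate genes 3 were higher and 1 lower. PHO5, a secreted acid phosphatase, was at -0.01, 0.56 and -0.03 in W303-1A without ethanol, -1.27, -1.68 and -1.69 with it, -2.05, -2.05 and -1.81 in CM1 without ethanol and -0.93, -1.06 and -0.70 with it. It rose in CM1 from the lowest group and stayed below the unstressed parent, with a difference of 2.79 ± 0.37 (adjusted p = 0.000775). PHO12 (3.03 ± 0.44, adjusted p = 0.00177) and PHO11 (2.53 ± 0.41, adjusted p = 0.00398) are close relatives of PHO5, and their probes may read one another. Without replicate 1 of CM1 with ethanol, or on the normal arrays, 5 phosphate genes were higher. The lower one lost its call with quantile normalization, with the trend removed, for the 12 arrays, and without replicate 2 of W303-1A without ethanol, replicate 3 of W303-1A with ethanol, or replicate 1 or 3 of CM1 without ethanol.

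Purine synthesis held 4 higher and 0 lower of 22 genes, with a median difference of 0.39 that was 0.75 on the normal arrays and 0.15 on the swapped ones. GUA1, the GMP synthase, was at -0.15, 0.79 and 0.89 in W303-1A without ethanol, -2.18, -2.79 and -2.97 with it, 0.57, 0.11 and 0.17 in CM1 without ethanol and -0.56, 0.40 and -0.35 with it. The stressed parent stood alone, a difference of 2.70 ± 0.46 (adjusted p = 0.0049). ADE13, the adenylosuccinate lyase, had one of 1.90 ± 0.33 (adjusted p = 0.00527), and SHM2, which supplies one-carbon units, one of 1.73 (adjusted p = 0.00744, or 0.0671 without the dye term).

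Most genes of a-type mating fell in the parent. Of 7 such genes 5 fell in W303-1A and 0 in CM1, with median responses of -1.92 and -0.41. The response difference was lower in CM1 for 0 and higher for 3, a count that was 3 in all 12 fits without 1 array. BAR1, the protease that degrades alpha factor, was at 0.61, 0.09 and 0.24 in W303-1A without ethanol, -2.27, -2.85 and -3.50 with it, -2.20, -1.92 and -2.63 in CM1 without ethanol and -2.49, -0.32 and -1.90 with it. The CM1 groups overlapped each other, and unstressed CM1 lay below the unstressed parent by 2.56. BAR1 had a difference of 3.87 ± 0.68 (adjusted p = 0.00614). STE2, the alpha factor receptor, had one of 2.91 ± 0.50 (adjusted p = 0.0052) and the pheromone gene MFA2 one of 1.60 ± 0.27 (adjusted p = 0.00448). Of 4 alpha-cell, 8 haploid and 9 meiotic genes 0 were called, where 4.65 % of all genes were. Since values are ratios to W303-1A RNA, they cannot show whether a marker is expressed at all.

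Of 10 histone genes, 7 fell in CM1 and 5 in W303-1A, and 3 were lower in CM1 and 0 higher, with a median difference of -0.59 that was -0.32 on the normal arrays and -1.19 on the swapped ones. HTB2, a histone H2B gene, was at -0.42, 0.47 and -0.33 in W303-1A without ethanol, -0.36, -1.07 and -0.63 with it, 0.66, 0.71 and 1.01 in CM1 without ethanol and -1.57, -2.37 and -1.67 with it. The parent's groups overlapped, while CM1 went from the highest to the lowest group. HTB2 fell by 2.67 in CM1, with a difference of -2.07 ± 0.41 (adjusted p = 0.0107), and its divergent partner HTA2, a histone H2A gene, had one of -1.67 ± 0.34 (adjusted p = 0.012). With the trend removed HTB2 was at -1.33 (adjusted p = 0.0525) and HTA2 at -0.93 (0.355), and HTA2 also lost its call for the 12 arrays (0.0575) and on the normal arrays (0.0819). In each of these 3 fits 1 histone gene was lower. Of 15 genes of cyclins and cell cycle regulators 1, CLN2, was higher. The count was 0 without replicate 2 of W303-1A without ethanol or replicate 3 of CM1 without ethanol. Of 32 DNA replication genes 0 were called. Over all genes 3.45 % were higher and 4.65 % were called in either direction.

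Several other groups held 0 calls among the genes measured, where 4.65 % of all genes were called. In lists this short 0 calls is near that share, so the counts do not set these groups apart. They were the 12 Hsp90 and co-chaperone genes, 9 mitochondrial chaperones, 7 trehalose, 13 glycogen, 12 glycerol and 11 pentose phosphate genes. Others were 19 peroxiredoxin, thioredoxin and glutaredoxin genes, 34 proteasome genes and 16 genes of drug and weak acid transport or its regulation. The rest were 10 vitamin B6 genes, 12 genes of branched-chain amino acid synthesis and 12 pheromone-induced genes. At an unadjusted p under 0.05 the limma fit gave 1276 genes in all, so differences of modest size may be missed here.

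The response differences of the 2 mutants from W303-1A share the parent's arrays, so they are set side by side only. Higher and lower calls made up 4.55 and 1.82 % of genes for SM1, a second ethanol-tolerant mutant of the same parent. The direct comparison of the mutants, CM1 minus SM1, does not use those arrays. It was higher for 6 genes (0.106 %) and lower for 13 (0.230 %), and 567 genes had an unadjusted p under 0.05. Of the 263 genes, 9 were called there. THI6 differed from SM1 by 4.79 ± 0.81 (adjusted p = 0.0162), where SM1 minus W303-1A was -0.34. SHM2 differed by 1.86 (adjusted p = 0.0162) with -0.13 for SM1 minus W303-1A. YGP1 (1.58, adjusted p = 0.0418) and ZRT1 (1.64, adjusted p = 0.0229) had a higher response in CM1 than in SM1, whose own response differences from W303-1A were 2.79 and 1.46. HTB2 (-2.54, adjusted p = 0.0153), HTA2 (-1.98, adjusted p = 0.0162) and RPL22B (-1.91, adjusted p = 0.0153) had a lower response in CM1 than in SM1. There SM1 minus W303-1A was 0.47, 0.31 and 0.15. The remaining 2 were ALD5, an acetaldehyde dehydrogenase gene (-2.15, adjusted p = 0.0153), and the G1 cyclin gene CLN2 (-2.38, adjusted p = 0.0235). The response of CLN2 was -2.52 in W303-1A, -0.58 in CM1 and 1.80 in SM1. It was thus higher than that of W303-1A by 1.94 in CM1 and 4.32 in SM1. ALD5 and CLN2 passed against W303-1A with adjusted p of 0.0229 and 0.021, but ALD5 did not without replicate 2 of W303-1A without ethanol or replicate 1 or 3 of CM1 without ethanol, with adjusted p up to 0.0608. CLN2 did not without replicate 2 of W303-1A without ethanol or replicate 3 of CM1 without ethanol, with adjusted p up to 0.0646, nor with the trend removed (0.0663), without the dye term (0.213) or on the normal arrays (0.0587).

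**Figure D4:**
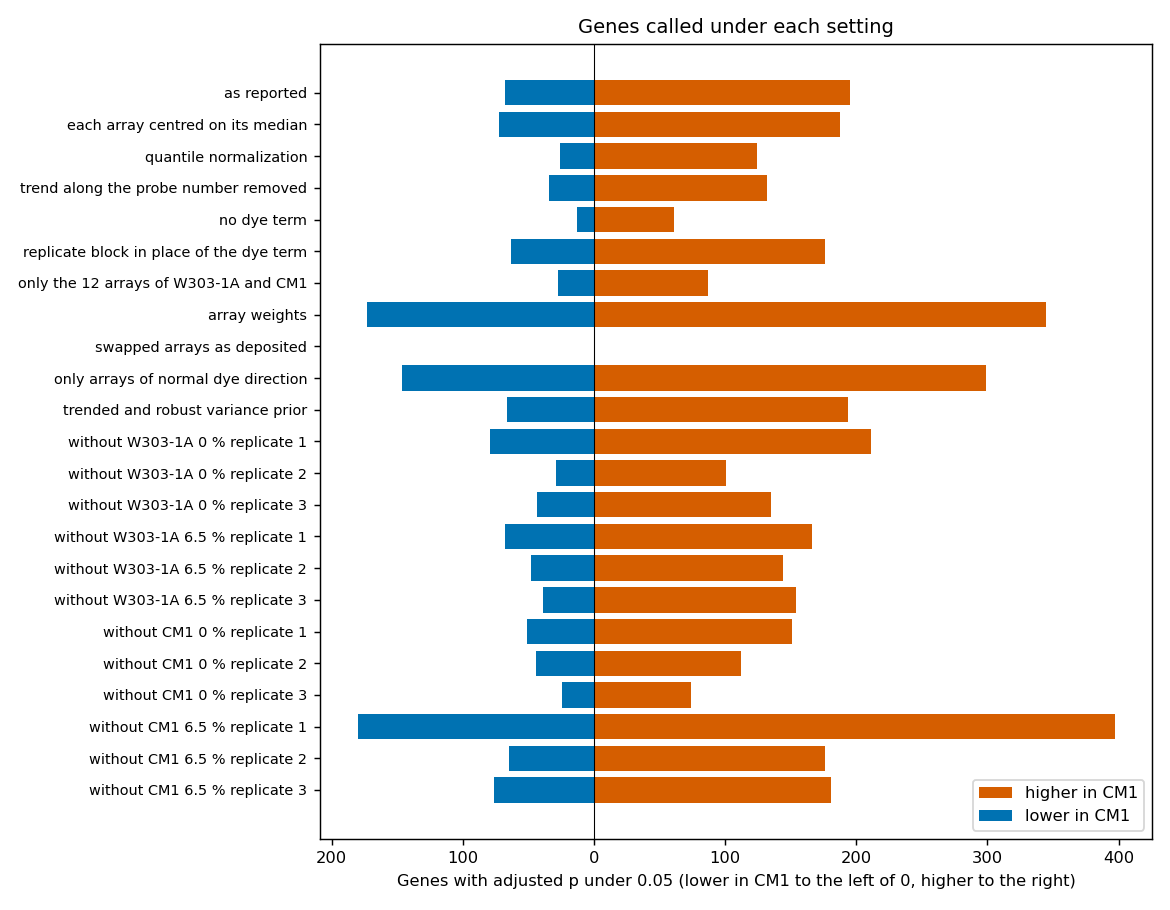
Number of genes with a higher (orange, to the right) or lower (blue, to the left) response in CM1 than in W303-1A under each setting of the analysis, with bars from 0. The first bar is the reported result, 195 and 68 genes. The bars are longest without replicate 1 of CM1 with ethanol, and the swapped arrays as deposited leave 1 gene.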

How the data were processed

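The authors deposited 1 normalized log ratio per probe and array, per the labels, and the values were read here as log2. The log base, the normalization and the ratio's direction were not given in the sources used here. No value was missing for the 6368 probes. A single gene symbol was annotated for 5673 of them and none for 695, and genes measured by 2 probes (23) were averaged, giving 5650 genes. Swapped arrays were multiplied by -1. A linear model with a mean for each of 6 groups and a term for dye orientation was fitted to 18 arrays in limma 3.58.1 under R 4.3.3, with 11 residual degrees of freedom before empirical Bayes moderation, and p-values were adjusted by Benjamini-Hochberg over all genes. The script was tested on simulated data. Signal intensities were not used here, so precision rests on the number of arrays. Named genes were the 20 largest passing differences in each direction, the 4 genes per list lowest in p, and a fixed set (OLE1, PMA1, ADH2, ADH1, GPD1, TPS1, CTT1, HSP104, HSP26 and HSP12). The text names part of them. The comparison, the 55 lists and this rule were chosen with earlier results of these data known. Lists are described by counts and medians, with no test of their own. Alternatives covered centring, quantile normalization, a trend along the probe number, the dye term, a replicate block, the arrays in the fit, array weights, the direction of swapped arrays, the variance prior, all probes, and leaving out each of 12 arrays. Counts of list members under these settings were added after seeing the data.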

Additional observations from a re-analysis of the deposited data

Results flagged for a closer look

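The response to ethanol differed between the 2 strains, by a test of the difference itself, for 195 genes with a higher and 68 with a lower response in CM1. In 13 of them both strains passed with opposite signs, and all 13 rose in CM1 and fell in W303-1A. These include YGP1 (4.37), ALD6 (3.96), ZRT1 (3.10), PHO5 (2.79), CWP1 (2.77), ACC1 (2.68), ACO1 (2.59) and CWP2 (2.31), with the response difference in brackets. The other 5, named after their values were seen, were MRH1, a plasma membrane protein gene (2.58), URA2, of pyrimidine synthesis (2.20), YAH1, the mitochondrial ferredoxin gene (2.03), YNL184C (2.02) and DSE2, a daughter-cell wall gene (1.79). Among the 695 probes without a gene symbol, left out of the gene counts, 24 had a response difference with adjusted p under 0.05 over all probes, 21 higher and 3 lower (3.45 %).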

How the results depend on the processing

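Against 195 higher and 68 lower genes, quantile normalization gave 124 and 26, removal of the trend along the probe number 132 and 34, no dye term 61 and 13, only the 12 arrays of the 2 strains 87 and 27, array weights 345 and 173, only arrays of normal dye direction 299 and 146, and the swapped arrays as deposited 1 and 0. Leaving out 1 array gave 74 to 397 higher and 24 to 180 lower. The share of higher genes among calls was 74.1 % as reported and 66.6 to 82.7 % under these settings other than the swapped arrays as deposited. All 263 genes kept their sign under each setting except the swapped arrays as deposited, where 259 did. Of the genes named by rule, ALD5 (0.17), FBA1 (-0.083) and SDH2 (-0.046) turned sign there. Leaving out the dye term, the replicate block, the 12 arrays alone and the variance prior leave each difference unchanged, so no sign could turn. The 263 genes were also picked from these same arrays, so a kept sign does not test a call. The replicate number as a block gave 176 and 63 genes, of which 238 were among the 263. Residuals of same-numbered arrays correlated at 0.201 to 0.747 before the dye effect was removed. With it removed they correlated at -0.447 to 0.104, above 0.1 in 2 of 18 pairs. Replicate 1 was the swapped array in every group, so the dye term takes out whatever those arrays share. The check therefore cannot show whether replicates 1 were paired. For replicates 2 and 3 the correlations with the dye effect removed were -0.231 to 0.104. The cause of the changes between settings was not tested, and some of the fits also held fewer arrays.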
